A study of Mus musculus with 24 samples.

Results

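The contractile genes of the actin cytoskeleton were followed through the differentiation of male mouse embryonic stem cells (mESCs) after knockdown of *Smarcc1* or *Smarca4*, subunits of the chromatin-remodelling BAF complex. The 9 genes were *Acta2*, *Actg2*, *Tagln*, *Cnn1*, *Cnn2*, *Myl9*, *Tpm1*, *Tpm2* and *Srf*, chosen by name with earlier results of these data known, and each had a row among the 25965 entries of the expression table. Male C57/Bl6 mESCs were expanded in 2i medium and weaned into differentiation medium, and on day 2 of differentiation they were transduced with virus carrying a short hairpin RNA. From day 3 they were selected with puromycin, so the Nons controls carried a virus and a resistance marker as well. RNA was sequenced on days 4, 5, 6 and 7. *Smarcc1* was targeted with the hairpins Smarcc1.6 and Smarcc1.7 and *Smarca4* with Smarca4.4 and Smarca4.6, and each hairpin was read in 1 library a day. The 8 libraries of each knockdown were set against the 4 libraries of a single nonsilencing culture, called Nons. A repeat Nons culture was not analysed here. How far Nons cultures vary among themselves is thus unknown, and both knockdown comparisons use the same 4 Nons libraries.

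In contractile cells the myosin motors of thick filaments pull on thin filaments of actin. Tropomyosin (*Tpm1*, *Tpm2*) lies along the actin filament, calponin (*Cnn1*, *Cnn2*) and transgelin (*Tagln*, also called SM22) bind it, and the regulatory light chain (*Myl9*) switches the myosin motor. *Acta2* and *Actg2* encode the smooth muscle isoforms of actin. Many of these genes are known targets of the serum response factor encoded by *Srf*, which binds a short element called the CArG box. SRF works with cofactors of the myocardin family (*Myocd*, and *Mrtfa* and *Mrtfb*, listed in the table as *Mkl1* and *Mkl2*). The myocardin-related factors MRTF-A and MRTF-B bind monomeric actin, so that SRF activity is known to follow the state of the actin cytoskeleton. Acta2, Tagln and Cnn1 are often used as smooth muscle markers, but they also rise in other contractile and in early differentiating cells.

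The genes differ in what stands directly before their transcription start, so the sequences in which a CArG box or its nearest variant was found are shown first. RefSeq promoters (GRCm38.p6, the build of the table) were present for 7 of the 9 genes, with 1 start each. *Actg2* and *Tagln* had no entry. A window of 250 bases before to 50 bases after the start was searched for the CArG box, which is its own reverse complement, so that 1 search covers both strands. A full match was found in *Srf* at positions -82 and -62, in *Cnn2* at -56 and in *Myl9* at -161, counted from the start to the first base of the box. *Acta2* held matches at -84 and -34 in which 1 of the 6 central bases was G or C, and *Myl9* a further one at -99. No match was found in the windows of *Cnn1*, *Tpm1* and *Tpm2*. Of all 32851 promoters of this length, 1.63% held a full match, and 8.50% held one with a single central G or C. The 180 bases before the start are printed from 5′ to 3′, with the matches in capitals.
Acta2 (chr19:34255374-34255553, minus strand): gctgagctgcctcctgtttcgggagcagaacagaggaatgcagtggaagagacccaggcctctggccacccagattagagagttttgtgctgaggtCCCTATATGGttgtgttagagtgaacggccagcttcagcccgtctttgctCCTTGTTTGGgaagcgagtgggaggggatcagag
Cnn2 (chr10:79988420-79988599, plus strand): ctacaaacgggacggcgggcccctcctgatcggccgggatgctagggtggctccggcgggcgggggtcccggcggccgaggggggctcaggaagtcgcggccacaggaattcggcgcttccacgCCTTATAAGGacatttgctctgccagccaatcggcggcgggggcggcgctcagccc
Myl9 (chr2:156775284-156775463, plus strand): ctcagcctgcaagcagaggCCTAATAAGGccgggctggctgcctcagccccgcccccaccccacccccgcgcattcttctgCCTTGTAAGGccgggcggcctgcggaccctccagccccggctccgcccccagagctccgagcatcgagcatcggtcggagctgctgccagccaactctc
Srf (chr17:46556163-46556342, minus strand): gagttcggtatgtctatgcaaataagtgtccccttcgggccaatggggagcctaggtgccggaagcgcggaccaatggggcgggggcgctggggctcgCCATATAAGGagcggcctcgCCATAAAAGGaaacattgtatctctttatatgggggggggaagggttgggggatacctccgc

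The knockdowns were first checked in their targets. *Smarcc1* was lower than in Nons of the same day in 8 of 8 *Smarcc1* knockdown libraries (23.7% to 60.1% of Nons), and *Smarca4* in 8 of 8 *Smarca4* knockdown libraries (21.6% to 55.3%). A genotype label calls the Smarca4 libraries a Smarcc knockdown, and the sample titles were followed. The authors gave each value as log2 of rpm, which sets a gene's reads against the library's total, from which whole reads were recovered. The libraries held 6829596 to 27472885 reads, and the smallest was Smarca4.4 on day 5, followed at a distance by a library of 15717152 reads. Of the 6 pluripotent cell markers (*Pou5f1*, *Sox2*, *Nanog*, *Zfp42*, *Esrrb*, *Klf4*), all were read in every library, and their sum ranged from 328 to 2201 rpm. The 8 smooth muscle markers differed in level. *Myocd* was listed without a read in 6 of 20 libraries and did not exceed 0.458 rpm, and the smooth muscle myosin *Myh11* reached at most 3.12 rpm. *Smtn* reached 92.6 rpm, *Des* 60.4, *Lmod1* 29.9 and *Synpo2* 19.1 rpm, and no cell type is named from these genes.

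*Acta2* (chromosome 19, 34241090 to 34255336 in mm10) was almost silent on days 4 and 5 and rose steeply afterwards. In Nons it measured 1.67, 0.76, 80.5 and 506 rpm on days 4, 5, 6 and 7. With Smarcc1.6 it measured 1.37, 0.554, 14.2 and 170.1 rpm, and with Smarcc1.7 1.40, 0.522, 15.0 and 151 rpm. With Smarca4.4 it measured 0.726, 0.879, 9.50 and 152 rpm, and with Smarca4.6 0.439, 0.425, 14.5 and 114 rpm. The knockdown libraries were all below Nons on days 6 and 7 without overlap, and the hairpins of different targets overlapped each other on day 7. The values of day 5 rest on 6 to 15 reads in each library, and those of day 6 on 165 to 1266.

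*Tagln* (chromosome 9, 45929628 to 45936058) rose almost as far as *Acta2*, from a higher start. In Nons it measured 10.4, 35.3, 1311 and 2743 rpm on days 4 to 7. With Smarcc1.6 the values were 7.35, 11.5, 412 and 963 rpm, and with Smarcc1.7 they were 6.89, 10.8, 269.9 and 798 rpm. With Smarca4.4 they were 6.74, 17.3, 446 and 1158 rpm, and with Smarca4.6 6.98, 18.5, 344 and 699 rpm. Nons was above all 4 hairpins on each of the 4 days. The *Tagln* entry overlaps the end of *Pcsk7* on the other strand by 65 bp, and the strand setting of the counting is not given in the sources used here. *Pcsk7* itself measured 5.27 to 15.9 rpm over the 20 libraries.

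*Cnn1* (chromosome 9, 22099281 to 22109630), the calponin of smooth muscle, rose mostly between days 4 and 6. In Nons it measured 8.12, 29.9, 151 and 172 rpm on days 4 to 7. The values with Smarcc1.6 were 3.19, 13.8, 55.4 and 87.3 rpm and with Smarcc1.7 4.26, 14.6, 49.1 and 84.9 rpm. With Smarca4.4 the gene measured 3.67, 13.6, 71.4 and 102 rpm, and with Smarca4.6 4.78, 19.7, 54.5 and 73.6 rpm. As for *Tagln*, Nons stood above every knockdown library of its day. *Cnn2* (chromosome 10, 79988584 to 79996062), the calponin found in many non-muscle cells, behaved otherwise. It measured 44.0, 30.7, 191 and 478 rpm in Nons, 43.1, 20.5, 103 and 349 rpm with Smarcc1.6 and 43.8, 29.1, 162 and 397 rpm with Smarcc1.7. With Smarca4.4 it measured 37.8, 29.6, 181 and 455 rpm and with Smarca4.6 35.1, 45.9, 136 and 398 rpm. All 8 Smarcc1 libraries were below Nons, furthest with Smarcc1.6 on day 6 (53.9% of Nons), and Smarca4.6 was above it on day 5.

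The tropomyosin genes were already expressed on day 4. *Tpm1* (chromosome 9, 67022590 to 67049406) measured 165, 240.2, 1635 and 2588 rpm in Nons. It measured 169, 160.0, 694 and 1381 rpm with Smarcc1.6 and 169, 153, 789 and 1381 rpm with Smarcc1.7. With Smarca4.4 it measured 159, 194, 968 and 1970.4 rpm, and with Smarca4.6 168, 252, 1064 and 1609.8 rpm. On day 4 the 5 series lay within 159 to 169 rpm, and on days 6 and 7 Nons was highest, the Smarca4 hairpins came next and the Smarcc1 hairpins were lowest. *Tpm2* (chromosome 4, 43514711 to 43523765) measured 19.5, 52.7, 138 and 244 rpm in Nons, 13.0, 33.4, 84.9 and 129 rpm with Smarcc1.6 and 14.6, 34.3, 66.4 and 115 rpm with Smarcc1.7. With Smarca4.4 it measured 14.94, 49.6, 122 and 226 rpm, and with Smarca4.6 18.2, 73.2, 119 and 163 rpm. Both Smarcc1 hairpins were below Nons on every day, whereas Smarca4.6 was above it on day 5.

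The myosin light chain and the transcription factor lay on both sides of Nons after knockdown. *Myl9* (chromosome 2, 156775420 to 156781658) measured 15.9, 24.8, 79.7 and 62.8 rpm in Nons, 22.5, 15.7, 55.7 and 96.0 rpm with Smarcc1.6 and 20.8, 13.3, 52.8 and 83.0 rpm with Smarcc1.7. With Smarca4.4 it measured 20.9, 23.3, 109.9 and 158 rpm and with Smarca4.6 17.7, 32.8, 89.0 and 139.9 rpm. It was the only one of the 8 genes with a usable level to fall between days 6 and 7 in Nons, and all 4 hairpins were above Nons on day 7. Both Smarcc1 hairpins were below Nons on days 5 and 6 (53.7% to 69.8% of it). *Srf* (chromosome 17, 46546839 to 46556162) moved least. It measured 54.6, 48.6, 51.3 and 74.3 rpm in Nons, 59.2, 26.1, 49.0 and 91.1 rpm with Smarcc1.6 and 58.2, 50.9, 74.96 and 95.7 rpm with Smarcc1.7. With Smarca4.4 it measured 52.0, 52.3, 97.3 and 99.95 rpm, and with Smarca4.6 46.0, 64.6, 59.3 and 89.6 rpm. Knockdown libraries lay on both sides of Nons up to day 6, lowest with Smarcc1.6 on day 5 (53.8% of Nons), and above it on day 7.

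**Figure D1:**
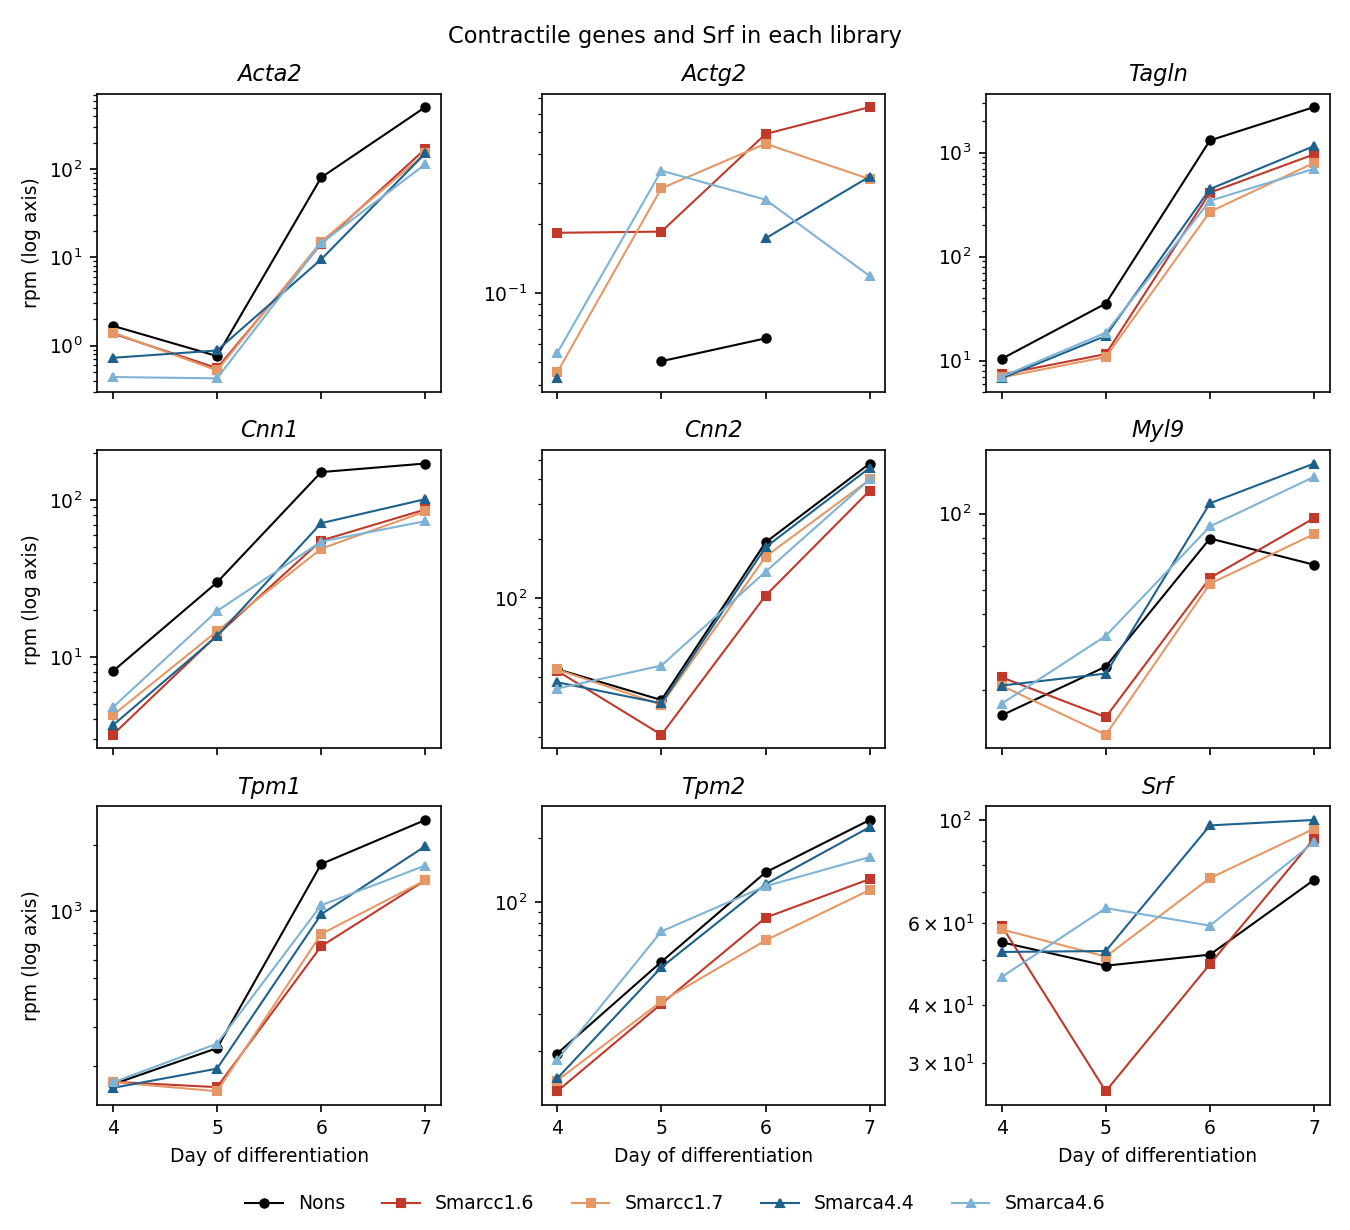
Expression in rpm (log axis) of the 9 genes against day of differentiation, 1 point for each library and 1 line for each culture series; libraries without an Actg2 read have no point. Acta2 and Tagln rise most, from at most 1.67 and 10.4 rpm on day 4 to 506 and 2743 rpm in Nons on day 7, and the 4 hairpins stay below Nons on days 6 and 7.

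*Actg2* (chromosome 6, 83512905 to 83536265) was barely detected and did not pass the filter on low values, so 8 of the 9 genes were tested. It had 0, 1, 1 and 0 reads in Nons on days 4 to 7, 4, 4, 11 and 14 with Smarcc1.6 and 1, 6, 7 and 5 with Smarcc1.7. With Smarca4.4 it had 1, 0, 3 and 7 reads, and with Smarca4.6 1, 8, 4 and 2. The sums were 2 reads over the 4 Nons libraries, 52 over the 8 *Smarcc1* knockdown and 26 over the 8 *Smarca4* knockdown libraries. Relative to the totals of the groups, the ratio to Nons was 13.0 (95% exact conditional interval 3.43 to 111) for *Smarcc1* knockdown and 7.38 (1.85 to 64.2) for *Smarca4* knockdown. These intervals cover counting error only and compare these libraries, not the conditions. No library exceeded 0.641 rpm. When the filter was dropped, *Actg2* was called higher with *Smarcc1* knockdown (limma, adjusted *p* = 0.0026) and not with *Smarca4* knockdown (0.0688).

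Levels were also taken per kilobase of exon, with the union of all annotated exons of a gene as its length. By this measure the order of the genes changed during differentiation. On day 4 the median level over the 5 libraries was highest for *Tpm1* (25.9 rpm per kb), and *Srf*, *Myl9* and *Cnn2* followed at 18.9, 17.9 and 17.5 with overlapping ranges. *Tpm2* (5.14), *Tagln* (3.51), *Cnn1* (1.56) and *Acta2* (0.624) were lower, and *Actg2* was last (0.0291). On day 7 *Tagln* led with a median of 485 rpm per kb (352 to 1380). *Tpm1* came next at 248 (213 to 399), overlapping it, and then *Cnn2* at 162 (142 to 194). The order of the first pair depends on the length used, which was 1988 bp for *Tagln* and 6485 bp for *Tpm1*. In rpm on day 7, *Tpm1* (1381 to 1970) was above *Tagln* (699 to 1158) with the hairpins. In Nons it was below, at 2588 against 2743 rpm. *Myl9* (82.6), *Acta2* (69.0) and *Tpm2* (56.2) overlapped in range, and *Acta2* spanned 51.9 to 231. *Cnn1* and *Srf* then stood side by side at 31.9 and 31.5 rpm per kb. In Nons alone *Acta2* was above *Cnn2* on day 7, at 231 against 194 rpm per kb.

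All 8 tested genes rose from day 4 to day 7 when averaged over the 3 groups (limma with Benjamini-Hochberg adjustment over 13296 genes). Across all tested genes 64.5% were called in this comparison, and 35.7% were called higher. There were 4749 higher and 3826 lower (4029 and 4704 with each library centred on its median gene), so that a call by itself says little. The log2 change was 7.65 for *Acta2* (standard error 0.234, adjusted *p* = 1.6e-10) and 7.34 for *Tagln* (0.17, 2.94e-11). *Cnn1* rose by 4.44, *Tpm1* by 3.48, *Tpm2* by 3.44, *Cnn2* by 3.36 and *Myl9* by 2.33. *Srf* rose by 0.69 (standard error 0.209, adjusted *p* = 0.0111). The median of the 8 genes was 3.46, against 0.08 over all tested genes, which became -0.09 when each library was centred on its median gene. Every one of the 5 series showed the rise in each of the 8 genes, and the share of all genes that did so was not counted. For *Acta2* the rise was 302-fold in Nons, 124-fold and 107-fold with the Smarcc1 hairpins and 209-fold and 259-fold with the Smarca4 hairpins.

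The rise was not spread evenly over the days. From day 4 to day 5, 3 of the 8 genes rose (*Cnn1* by 1.93, *Tpm2* by 1.53 and *Tagln* by 1.27 on the log2 scale), and *Acta2* fell by 0.80 (adjusted *p* = 0.018). That call of *Acta2* rests on 6 to 46 reads a library, and it was lost with log2(rpm + 1) and without either Smarcc1 hairpin (limma, adjusted *p* = 0.0629 to 0.0757). With a replicate block for culture series *Tpm1* (0.29, adjusted *p* = 0.0422) and *Cnn2* (-0.44, 0.0374) were called too. Across all genes 38.7% were called at this step. From day 5 to day 6, 7 of the 8 genes rose, *Acta2* by 5.25, *Tagln* by 4.86, *Tpm1* by 2.40, *Cnn2* by 2.38, *Cnn1* by 2.05, *Myl9* by 1.81 and *Tpm2* by 1.18. At 0.40 (adjusted *p* = 0.165), *Srf* did not pass the test, and 32.3% of all genes were called. From day 6 to day 7, 5 genes rose, *Acta2* by 3.20, *Cnn2* by 1.43, *Tagln* by 1.22, *Tpm1* by 0.79 and *Tpm2* by 0.73, against 27.5% of all genes called (2248 higher and 1408 lower, and 1407 and 2278 with centring). *Srf* at 0.49, *Cnn1* at 0.46 (adjusted *p* = 0.0386 with the block) and *Myl9* at 0.32 did not pass there.

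*Smarcc1* knockdown lowered 5 of the 8 tested genes when averaged over the 4 days. The largest decreases were those of *Tagln*, at a log2 fold change of -1.46 (standard error 0.156, adjusted *p* = 8.32e-05), *Acta2* at -1.22 (0.215, 0.00263) and *Cnn1* at -1.19 (0.154, 0.000352). The tropomyosins *Tpm2* (-0.76, standard error 0.14, adjusted *p* = 0.00368) and *Tpm1* (-0.66, 0.108, 0.00169) also fell. Of all 13296 genes 10.6% were called in this comparison and 3.08% were called lower (1003 higher and 409 lower, against 600 and 518 after quantile normalization). *Cnn2* stood at -0.32 (95% confidence interval -0.67 to 0.04), *Myl9* at -0.10 (-0.37 to 0.18) and *Srf* at 0.06 (-0.35 to 0.48), and none of them passed the test. The median of the 8 was -0.71 and that of all genes 0.06. *Tagln*, *Cnn1*, *Tpm2*, *Cnn2* and *Acta2* were below Nons of the same day in 8 of 8 libraries and *Tpm1* in 6 of 8. The share of all genes below Nons in 8 of 8 libraries was not counted, and the libraries of a day share 1 Nons library.

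*Smarca4* knockdown lowered 3 of the 8 genes, with *Acta2* at a log2 fold change of -1.65 (standard error 0.215, adjusted *p* = 0.000701), *Tagln* at -1.23 (0.156, 0.000611) and *Cnn1* at -1.02 (0.154, 0.00175). *Myl9* was called higher, at 0.50 (0.127, 0.0349), a call that held in 4 of 14 alternatives. That call was lost with a replicate block for culture series (limma, adjusted *p* = 0.202), with centring on the median gene and without any 1 hairpin. Its log2 change was 0.47 without Smarca4.4 and 0.52 without Smarca4.6, and leaving out a Smarcc1 hairpin could not change it. In total 4 of the 8 genes were called, beside 6.71% of all genes, and 1.96% of all genes were called lower (631 higher and 261 lower, against 351 and 313 after quantile normalization). *Tpm1* at -0.34 (95% confidence interval -0.57 to -0.11, adjusted *p* = 0.0854), *Tpm2* at -0.15 (-0.45 to 0.15), *Cnn2* at -0.12 (-0.47 to 0.24) and *Srf* at 0.25 (-0.16 to 0.67) did not pass. The median of the 8 was -0.24 and that of all genes 0.06. *Tagln* and *Cnn1* were below Nons in 8 of 8 libraries, *Acta2* in 7 of 8, and *Myl9* was above it in 7 of 8. The share of all genes with such counts was not determined, and here too the libraries of a day share 1 Nons library. All other calls of the 2 knockdown comparisons held in every alternative in which the gene was tested (13 or 14 for each), and every one rests on the single Nons series.

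**Figure D2:**
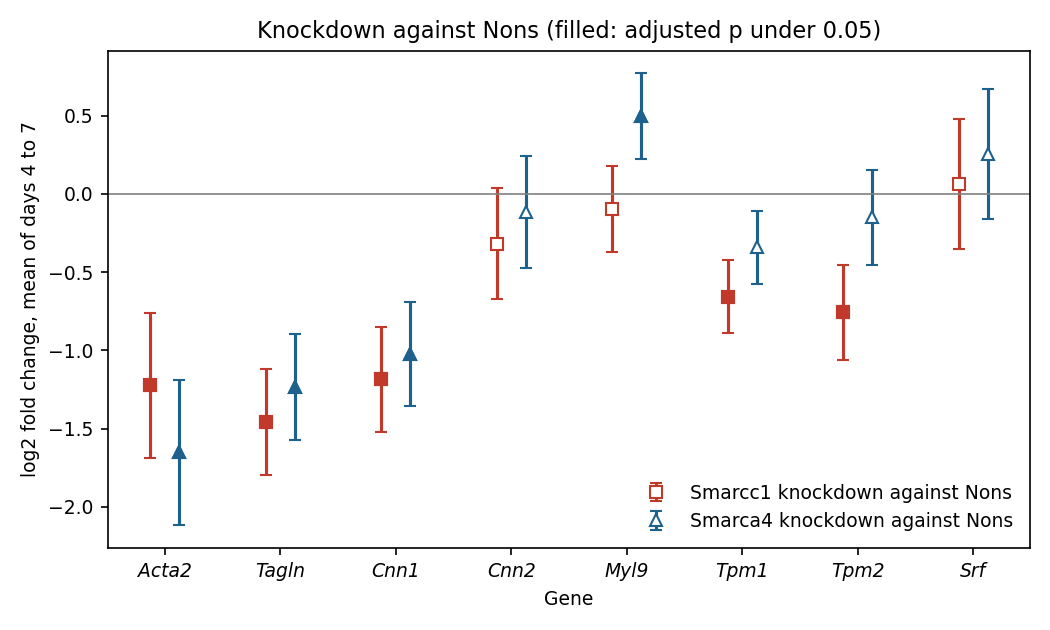
Log2 fold change of the 8 tested genes against Nons, averaged over days 4 to 7, for Smarcc1 knockdown (squares) and Smarca4 knockdown (triangles); bars are 95% confidence intervals and filled points have an adjusted p under 0.05. Tagln, Acta2 and Cnn1 lie between -1.02 and -1.65 in both comparisons, and Myl9 is above 0 with Smarca4 knockdown (0.50).

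On single days, members were called on days 6 and 7. With *Smarcc1* knockdown, 4 genes were called on day 6, *Acta2* at -2.46, *Tagln* at -1.97, *Cnn1* at -1.54 and *Tpm1* at -1.14, beside 2.84% of all genes. On day 7, 3 were called, *Acta2* at -1.66 (limma, adjusted *p* = 0.0482, and 0.0551 with the block), *Tagln* at -1.65 and *Tpm1* at -0.91, beside 4.35%. With *Smarca4* knockdown, *Acta2* at -2.78 and *Tagln* at -1.74 were called on day 6, beside 0.97% of all genes. On day 7 they stood at -1.95 and -1.61, and *Myl9* was called higher at 1.24 (adjusted *p* = 0.0284), beside 1.59%. Not all of these calls were kept under other settings. Leaving out 1 hairpin lowered the residual degrees of freedom from 8 to 4, so a lost call there does not show dependence on that hairpin. The median log2 change of the 8 genes with *Smarca4* knockdown on day 6 was -0.49. It uses no Smarcc1 library, so leaving out a Smarcc1 hairpin could not change it and could affect only the calls. After quantile normalization 3, 1, 1 and 0 genes were called, in the order in which the 4 tests are given. Without Smarcc1.6 the numbers were 1, 0, 0 and 0, and without Smarcc1.7 they were 0 in all 4 tests. They were 4, 2, 0 and 1 without Smarca4.4 and 4, 2, 1 and 0 without Smarca4.6. In rpm, *Acta2* on day 6 was at 80.5 in Nons and at 9.50 to 15.0 with the 4 hairpins, and on day 7 at 506 and 114 to 170.1.

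None of the 8 genes was called on day 4 or day 5 in either comparison, although some values were as large. *Acta2* stood at -1.57 with *Smarca4* knockdown on day 4, *Cnn1* at -1.14 with *Smarcc1* knockdown on day 4 and *Tagln* at -1.66 with *Smarcc1* knockdown on day 5. On day 4, 0% of all genes were called by limma in each (614 genes with *Smarcc1* knockdown and 313 with *Smarca4* knockdown had an unadjusted *p* under 0.05), and limma-voom on recovered reads also called 0. Without the smallest library, 4 genes were called with *Smarcc1* knockdown on day 4. On day 5, 0.143% were called with *Smarcc1* knockdown and 0% with *Smarca4* knockdown (1144 genes at an unadjusted *p* under 0.05, and 0 called by limma-voom). Without the smallest library, which is Smarca4.4 of day 5 itself, 426 genes were called with *Smarca4* knockdown on that day, none of them among the 8. *Tagln* with *Smarcc1* knockdown on day 5 had an adjusted *p* of 0.0631 and was called when the filter was dropped (limma, 0.0444). Whether the effect changed with the day was tested for each gene over all 4 days. No member was called for *Smarcc1* knockdown, where 0.256% of all genes were (*Acta2* adjusted *p* = 0.463, *Myl9* 0.344), nor for *Smarca4* knockdown, where 0.00752% were (*Acta2* adjusted *p* = 0.951). A difference of the effect between days was therefore not shown for any of the 8 genes.

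**Figure D3:**
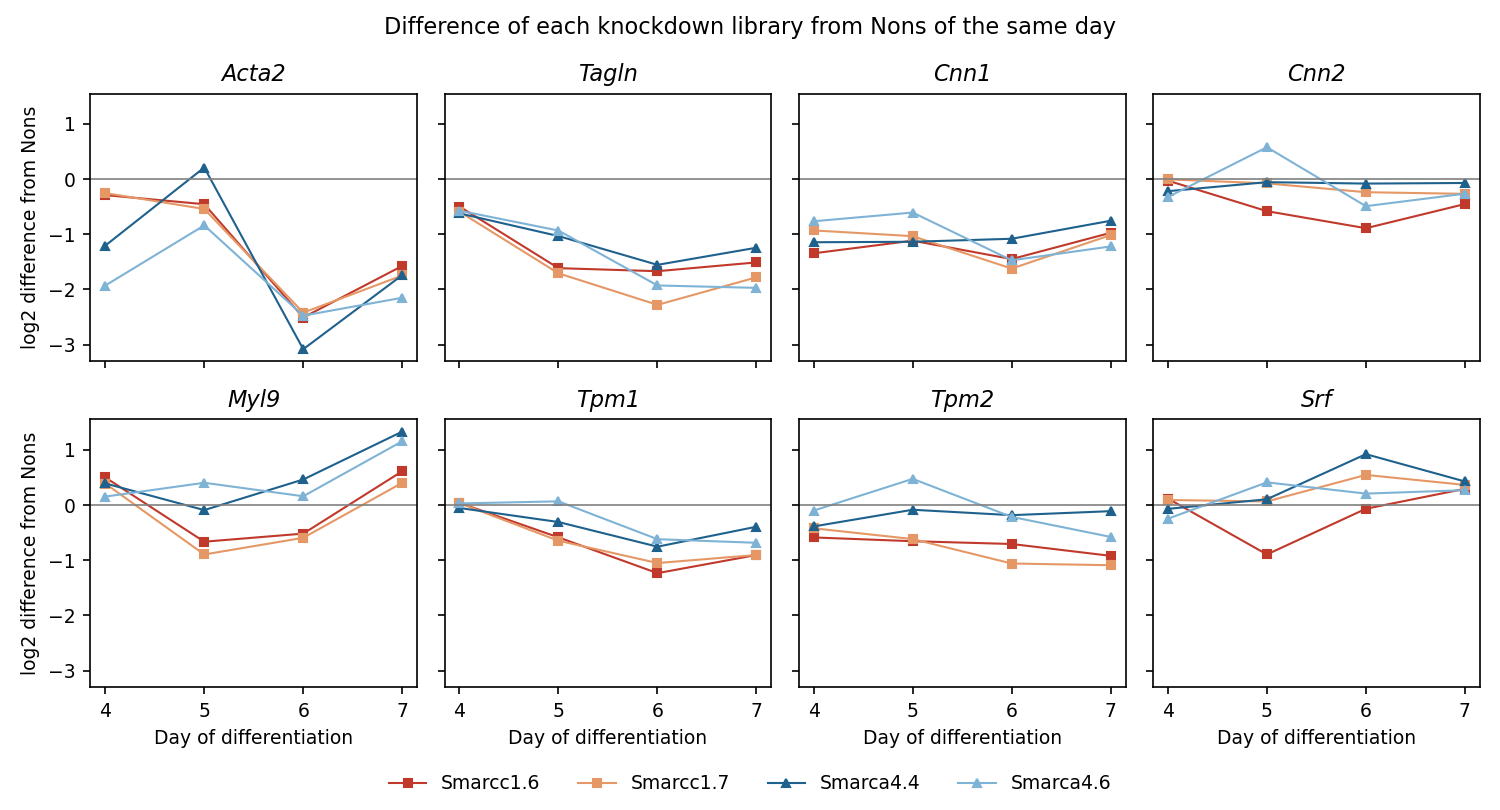
Log2 difference of each knockdown library from the Nons library of the same day, for the 8 tested genes against day of differentiation; squares are Smarcc1 hairpins, triangles Smarca4 hairpins, and 0 is Nons. Acta2 is lowest on day 6 with all 4 hairpins, Tagln and Cnn1 are below 0 in all 8 libraries of each knockdown, and Myl9 is above 0 in all 4 on day 7.

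The knockdowns were also set against each other, which needs no Nons library. *Myl9* was lower with *Smarcc1* than with *Smarca4* knockdown, at a log2 difference of -0.59 (standard error 0.104, adjusted *p* = 0.00795), and so was *Tpm2*, at -0.61 (0.114, 0.0104). Across all genes 4.09% were called. *Tpm1* at -0.32 (adjusted *p* = 0.066) and *Acta2* at 0.43 (0.238) did not pass. Nor did *Tagln* at -0.22 (95% confidence interval -0.50 to 0.05), *Cnn1* at -0.16 (-0.44 to 0.11), *Cnn2* at -0.20 (-0.49 to 0.09) and *Srf* at -0.19 (-0.53 to 0.15). With the replicate block neither *Myl9* nor *Tpm2* was called (limma, adjusted *p* = 0.0775 and 0.103). Leaving out any 1 hairpin, which left 4 residual degrees of freedom, also ended both calls. The log2 differences then stayed at -0.51 to -0.67 for *Myl9* and -0.57 to -0.65 for *Tpm2*.

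Of the SRF cofactors, the myocardin-related *Mrtfa* and *Mrtfb* and the ternary complex factors *Elk1*, *Elk3* and *Elk4* were tested, and *Myocd* was too low. None of the 5 was called in either knockdown comparison. *Mrtfa* stood at 0.47 with *Smarcc1* and 0.42 with *Smarca4* knockdown, *Mrtfb* at 0.37 and 0.31, and *Elk3* at -1.10 (adjusted *p* = 0.0727) and -0.81. *Elk3* rose by 1.80 and *Elk1* by 0.37 from day 4 to day 7. *Mrtfa* measured 5.97 to 23.3 rpm and *Mrtfb* 7.11 to 26.1 rpm over the 20 libraries, so both cofactors were read in every library.

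The paralogs of the 9 genes changed in part with them. Of 12 listed, 10 were tested and none was called higher with *Smarcc1* knockdown. Called lower were 5 (3 with the replicate block), beside 3.08% of all genes. They were the skeletal muscle actin *Acta1* (-1.52), the myosin light chains *Myl6* (-0.83) and *Myl12b* (-0.72), the tropomyosin *Tpm4* (-0.74) and *Tagln2* (-0.47). With *Smarca4* knockdown *Tpm4* (-0.62) and *Cnn3* (-0.55) were called lower, beside 1.96% of all genes, and neither with the block. The cytoplasmic actins, which every cell uses, stood at -0.18 (*Actb*) and -0.09 (*Actg1*) with *Smarcc1* and at 0.02 and 0.20 with *Smarca4* knockdown, and were not called. *Acta1* showed the steepest rise of these, 11.04 on the log2 scale from day 4 to day 7, and measured 0.109, 0.861, 65.9 and 463 rpm in Nons. On day 4 it measured 0.0427 to 0.330 rpm with the hairpins, near the level of 3 reads. The size of its rise is therefore uncertain, from 401-fold with Smarca4.6 to 4241-fold in Nons. The muscle actins are near-identical in protein sequence. Whether any reads were split among *Acta1*, *Acta2*, *Actg2* and *Actc1* was not tested, and their levels are uncertain to that extent. In Nons on day 7, 9502 reads were counted for *Acta2* and 0 for *Actg2*. From day 4 to day 7, 8 of the 10 paralogs rose, beside 35.7% of all genes called higher, led by *Acta1*, *Tpm4* (3.21) and *Tagln2* (2.62).

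Of the other cytoskeletal genes commonly listed as SRF targets, all 25 were tested. With *Smarcc1* knockdown 6 were called lower and none higher, beside 3.08% of all genes called lower, and 2 were called with the replicate block. Among those called, the LIM protein *Csrp1* (-1.36, adjusted *p* = 0.000164), its relative *Fhl2* (-1.16, 0.0169) and the actin-binding caldesmon *Cald1* (-0.81, 0.00496) changed most. With *Smarca4* knockdown *Csrp1* (-1.15, limma, adjusted *p* = 0.00107) was the single gene called of the 25, beside 6.71% of all genes. The list median was -0.21 with *Smarcc1* knockdown and -0.0049 with *Smarca4* knockdown. From day 4 to day 7, 21 of the 25 rose and 1 fell, beside 35.7% of all genes called higher. *Cald1* (3.59), *Fhl2* (3.23) and *Csrp1* (3.03) rose most. These 3 were also the genes called lowest with *Smarcc1* knockdown.

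The immediate early genes, the other classical group of SRF targets, did not move as one. Of 8 tested, *Fos* was called higher with *Smarcc1* knockdown (1.20) and the matricellular *Cyr61* lower (-0.87), and *Fos* (1.40) and *Ctgf* (0.57) were called higher with *Smarca4* knockdown. With the replicate block 1 of these calls was kept in the first comparison and none in the second. Of all genes, 10.6% and 6.71% were called in these comparisons. From day 4 to day 7, 5 rose (*Cyr61* by 4.69, *Fos* by 2.52 and *Junb* by 2.47 in the lead) and 2 fell, beside 64.5% of all genes called. Among 10 tested genes of the TGF-beta pathway, which is known to induce contractile genes in fibroblasts, *Tgfbi* was called higher with both knockdowns (2.66 and 1.04) and no other gene was called. That call in 1 of 10 genes stands beside the same 10.6% and 6.71% of all genes. From day 4 to day 7, 6 of the 10 rose, among them *Smad3* (1.25) and *Tgfbr3* (1.07), beside 35.7% of all genes called higher.

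**Figure D4:**
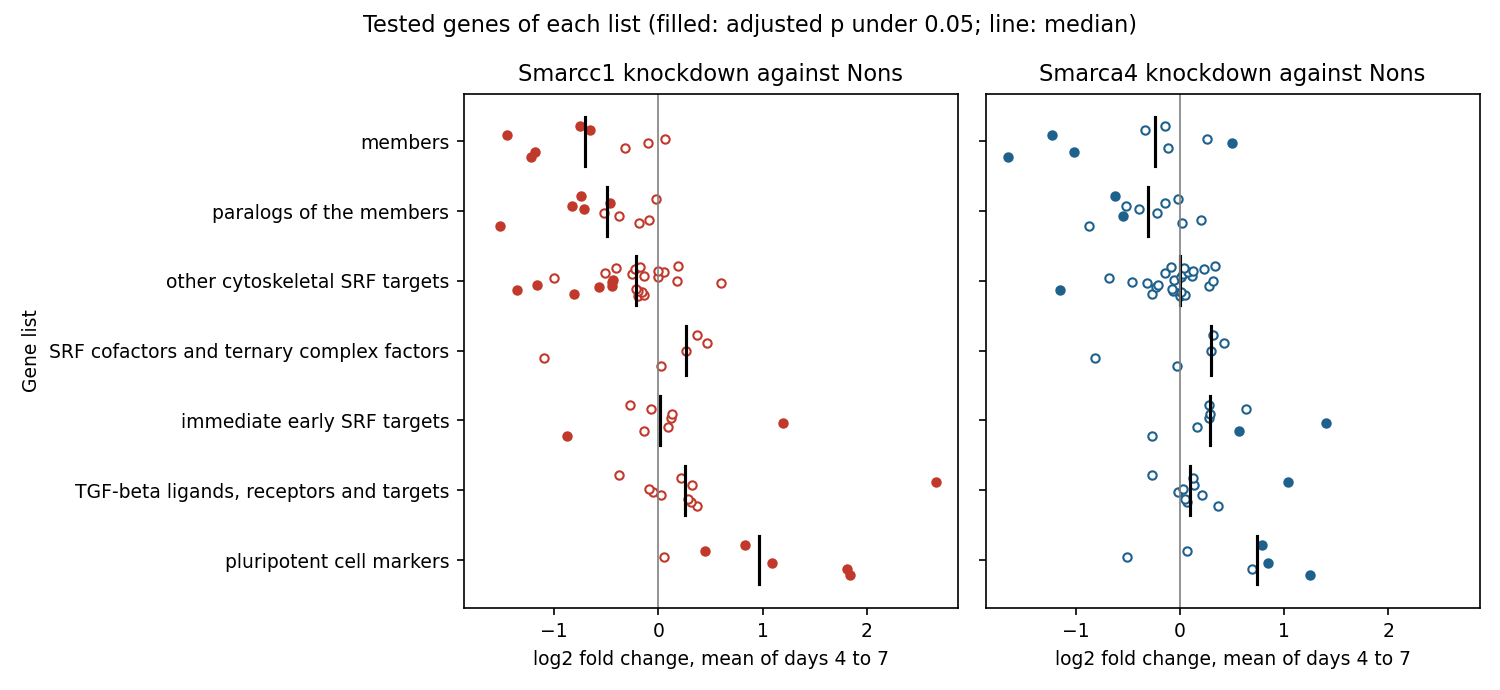
Log2 fold change against Nons, averaged over days 4 to 7, of the tested genes of 7 lists, for Smarcc1 knockdown (left) and Smarca4 knockdown (right); filled points have an adjusted p under 0.05 and vertical lines are list medians. The medians of the contractile members are -0.71 and -0.24, and those of the pluripotent cell markers 0.96 and 0.74.

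Markers of other cell states moved beside the contractile genes. Of the 6 pluripotent cell markers, 5 were called higher with *Smarcc1* knockdown (median 0.96, *Esrrb* 1.84, *Klf4* 1.81, *Nanog* 1.09). With *Smarca4* knockdown 3 were called higher (median 0.74, *Esrrb* 1.24, *Nanog* 0.84, *Zfp42* 0.78). Of all 13296 genes, 1003 and 631 were called higher in these comparisons. Not called were *Pou5f1* with *Smarcc1* knockdown (0.05), and *Pou5f1* (-0.51), *Sox2* (0.07) and *Klf4* (0.69) with *Smarca4* knockdown. With the replicate block 4 and 3 were called. Their sum on day 7 was 361 rpm in Nons, 515 and 709 rpm with the Smarcc1 hairpins and 328 and 334 rpm with the Smarca4 hairpins. From day 4 to day 7 all 6 fell, beside 3826 of 13296 genes called lower. The log2 change was -3.54 for *Esrrb*, -2.74 for *Pou5f1* and -2.34 for *Klf4*. Of the 8 smooth muscle markers 4 were tested. None was called with *Smarcc1* knockdown (*Des* at -0.35, *Smtn* at -0.31, *Lmod1* at -0.07 and *Synpo2* at 0.85). *Des* was called lower with *Smarca4* knockdown (-0.70, a call lost with the block, limma, adjusted *p* = 0.146), beside 1.96% of all genes. *Lmod1* at -0.66, *Smtn* at -0.14 and *Synpo2* at 0.85 were not called there. *Lmod1* (4.48), *Des* (3.48) and *Smtn* (1.79) rose over the days. The sum of the 8 smooth muscle markers on day 7 was 198 rpm in Nons, 142 and 150.3 rpm with the Smarcc1 and 117 and 139.6 rpm with the Smarca4 hairpins. On day 6 it was 69.4 rpm in Nons, 44.5 and 84.7 rpm with the Smarcc1 and 47.5 and 83.1 rpm with the Smarca4 hairpins. On day 5 these sums were 26.3, 18.1 and 36.3, and 31.2 and 36.6 rpm, and on day 4 they were 37.4, 41.6 and 44.8, and 32.3 and 32.6 rpm.

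Of the 12 cardiac and skeletal muscle markers 6 were tested. With *Smarcc1* knockdown, 2 were called higher (*Myh6* 1.25, *Ttn* 0.95) and 2 lower (*Acta1*, also a paralog, and *Myl4* at -0.89), and with *Smarca4* knockdown none. None of the 4 was called with the block. Of 6 tested fibroblast and mesenchyme markers, *Dcn* was called lower with both knockdowns (-2.95 and -2.37), at levels of at most 5.85 rpm, and with the block only with *Smarcc1* knockdown (limma, adjusted *p* = 0.0199, against 0.0962). With *Smarcc1* knockdown *Col1a1* (1.32) was called higher and *Twist1* (-0.67) lower, neither of them with the block. The sum of the 10 fibroblast and mesenchyme markers on day 7 was 63.9 rpm in Nons, 109.9 and 132 rpm with the Smarcc1 hairpins and 35.2 and 52.8 rpm with the Smarca4 hairpins. Of 2 tested primitive streak and mesoderm markers, *Hand1* was called higher with *Smarca4* knockdown (1.35, limma, adjusted *p* = 0.174 with the block). Beside the calls of these 3 lists, 10.6% of all genes were called with *Smarcc1* and 6.71% with *Smarca4* knockdown. In bulk RNA, fewer cells of a type and less RNA per cell cannot be told apart, and the part of these markers in the contractile differences was not tested.

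Across the 20 libraries the 8 tested genes followed one another. The 28 pairs had a median Pearson correlation of 0.89 (0.53 to 0.99), which is a description, since the libraries share days and series. After the mean of each day was subtracted, the median was 0.49 (-0.26 to 0.91) and 23 of 28 pairs stayed positive. Correlations between pairs of other genes were not determined, so these values are not shown to be particular to the 8. The pairs below 0 all held *Srf* or *Myl9*, with *Acta2* and *Srf* at -0.26 and *Acta2* and *Myl9* at -0.23. The genes most like the mean of the 8 over the 20 libraries were the kinase *Mapkapk2* (Pearson correlation 0.99), *Clu* (0.99), *Jun* (0.99), *Tinagl1* (0.99), *H19*, *Anxa5*, *Prr5l*, *Krt8*, *Pdgfb* and *Ilk* (each 0.98). Those most like *Srf* were *Map3k11* (0.96), *Zyx* (0.96) and *Zkscan17* (0.96). After the day means were subtracted the closest were *Cyr61* (0.93), *Tkt* (0.93) and *Krt7* (0.93) for the mean of the 8, and *Dhx34* (0.95) for *Srf*. *Cyr61* and *Zyx*, a focal adhesion protein, were also on the lists of SRF targets.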

How the data were processed

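The RNA-seq data comprised 20 libraries of male mESCs. Single-end reads were trimmed by the authors and mapped to mm10 (HISAT2 in the submitters' processing notes), and the deposited values are log2 rpm per gene from SeqMonk. The annotation release and strand setting are not given in the sources used here. The lowest value of each library equals 0.9 of a read, and 100% of values below 1000 reads were whole within 0.05 reads. A count of 0 allows up to 3 reads, which are 0.109 to 0.439 rpm.

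Differences were tested with limma 3.58.1 in R 4.3.3 (trend) on the 13296 genes whose log2 rpm averaged 0 or more, with a mean for each of 12 combinations of group and day and 8 residual degrees of freedom from the hairpin pairs. Benjamini-Hochberg adjusted *p*-values used a threshold of 0.05 over all tested genes. The change of an effect between days was an F test. Hairpins of a gene are separate constructs in 1 line, so *p*-values measure only the spread between these libraries, and the level of Nons rests on 1 library a day. Hairpin numbers are names and pair no cultures. The replicate block is the culture series as a random effect (duplicateCorrelation, 0.217). Leaving out 1 hairpin lowered the residual degrees of freedom from 8 to 4, so calls could be lost at an unchanged log2 change. In simulated data of the *Smarcc1* comparison 200 genes were given a log2 change of 1. Of these, 198 passed the filter and 144 (72.7%) were called in the right direction, with 6 unchanged genes among 13226 tested. The simulated libraries varied independently, without an effect of culture series, so the 6 do not measure false calls in the real data.

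The members and gene lists were chosen with earlier results of these data known. Genes named beside the members are, for each list and comparison, at most the 3 called genes of largest change, the 10 tested genes most correlated with the mean of the z-scored members and the 3 most correlated with *Srf*. The paralogs *Actb*, *Actg1*, *Myl12b* and *Tagln2*, *Pcsk7*, the cofactors and *Myl4* were named after their values were seen. So were the pluripotent cell and smooth muscle markers given as not called. Exon lengths are the union of all exons of a gene in GENCODE M21. Some listed genes are not reported here.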

Additional observations from a re-analysis of the deposited data

Results flagged for a closer look

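The effects of the 2 knockdowns differed for *Myl9* and *Tpm2* by the direct test of *Smarcc1* against *Smarca4* knockdown (limma, adjusted *p* = 0.00795 and 0.0104), at log2 differences of -0.59 and -0.61. *Myl9* was lower with both Smarcc1 hairpins than with both Smarca4 hairpins on days 5, 6 and 7, and higher on day 4 with Smarcc1.6 than with either. Leaving out any 1 hairpin, with 4 residual degrees of freedom, or entering the culture series as a block, left neither gene past the threshold. Groups of libraries of the same target and day hold at most 2 libraries, so none could be examined for a library standing apart.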

How the results depend on the processing

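A first count covered single genes averaged over days, for day 7 against day 4 and for the change of an effect between days. It took in neighbouring days under the replicate block only and left out single days, which are given further below. Of the results in this count, 647 under an alternative kept their direction and their side of the threshold. Another 20 lost a call, 5 gained one and 2 reversed. The reversals were *Srf* in *Smarcc1* knockdown against Nons without hairpin 7 (log2 change -0.14, and 0.27 without hairpin 6) and in *Smarcc1* against *Smarca4* knockdown without hairpin 6 (0.014, and -0.39 without hairpin 7), neither of them called. Of the 20 lost calls in this count, 10 were *Myl9* in *Smarca4* knockdown and 10 were *Myl9* and *Tpm2* between the knockdowns. With the culture series as replicate block, members called between the knockdowns went from 2 to 0, all genes called from 1412 to 605 for *Smarcc1* knockdown, 892 to 258 for *Smarca4* knockdown and 544 to 105 between them. Genes whose effect changed between days went from 34 to 88 and from 1 to 22 with the block, and it ended no other call of a member averaged over days than those of *Myl9* and *Tpm2*. The alternatives for single days and neighbouring days were chosen after seeing the data. On single days the block ended the call of *Acta2* on day 7 of *Smarcc1* knockdown (limma, adjusted *p* = 0.0551), and each of the 12 calls of members on days 6 and 7 was lost in 1 to 7 of 12 or 13 alternatives. Between neighbouring days only the fall of *Acta2* from day 4 to day 5 was lost (in 3 of 12). With a mean of at least 10 rpm, which tests fewer genes, 491, 266, 182 and 5538 genes were called for these 3 comparisons and for day 7 against day 4 (8575 before), members called with *Smarca4* knockdown went from 4 to 2 (*Acta2* was no longer tested), and effects that changed between days were called in 3 and 0 genes. These were 5 and 0 with log2(rpm + 1) and 3 and 0 with quantile normalization. For *Smarcc1* knockdown there were 22 with no filter, and for *Smarca4* knockdown 8 with centring and 2 with limma-voom. Without the smallest library the numbers were 4 members and 1067 genes between the knockdowns and 38 genes whose *Smarca4* effect changed between days, and *Acta2* and *Tpm1* were called too. Without 1 hairpin, members called were 5 for *Smarcc1* knockdown, 3 for *Smarca4* knockdown, 0 between them and 8 for day 7 against day 4, whichever hairpin was left out. All genes called then ranged from 843 to 1288, 277 to 656, 49 to 263 and 7586 to 8118 in the same order, and from 0 to 3 and 0 to 0 for effects that changed between days. The lowest values came without Smarcc1.7, Smarca4.6 and Smarcc1.6 in the first 3, and without Smarca4.4 there were 420 for *Smarca4* knockdown. The causes were not tested. The single Nons series sets the level of each comparison with Nons, and its own spread could not be measured. *Acta2* on day 5 and *Actg2* on every day are limited by depth.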
